A study of Mus musculus with 12 samples.

Results

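The endothelial receptor and junction genes Kdr, Flt1, Flt4, Tek, Tie1, Pecam1, Cdh5, Eng, Vwf and Esam were followed in mammary tissue of pregnant mice with different numbers of intact Stat5a and Stat5b alleles. Members were taken by name, as every probe set that the platform's annotation assigns to 1 of these 10 genes alone. This gave 16 probe sets of 45037 other than controls, and 10 genes of 18193. A probe set is a group of short array probes for 1 transcript, and its value is a log2 signal. Flt1 has 4 probe sets, Flt4, Cdh5 and Eng have 2 each, and the remaining 6 genes have 1. All 16 lay above the filter on low signal (a mean over the 12 arrays of log2 6.04, the 30th percentile).

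Endothelial cells line blood and lymph vessels. Vascular endothelial growth factors act on them through the tyrosine kinases encoded by Kdr, Flt1 and Flt4, and angiopoietins through the kinase encoded by Tek, with Tie1 as its partner. Cadherin, immunoglobulin-type and tight junction proteins hold the cells together. In the mammary gland the capillary bed grows with the alveoli during pregnancy.

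The tissue was collected 6 days after a mating plug, from 3 mice of each of 4 genotypes on a mixed C57BL/6, FVB and 129 background. Arrays labelled Stat5a-/- come from mice with no Stat5a allele and 2 of Stat5b, and Stat5ab+/null mice carry 1 of each. Single-Stat5b mice (Stat5abnull/Stat5a- in the labels) keep 1 Stat5b allele, and single-Stat5a mice (Stat5abnull/Stat5b-) keep 1 Stat5a allele. All groups thus lack at least 2 of the 4 alleles, no wild-type mice were analysed here, and the age of the mice is not stated. The labels also mention sorted cells and an injection of PolyIC to activate Mx1-Cre in these mice, while the series design gives whole mammary tissue, which was followed. The titles of Stat5a-/- arrays carry ABB and those of Stat5ab+/null arrays AAB, which does not match the genotype labels if the letters count alleles. In bulk tissue, fewer cells of a type and less RNA per cell cannot be told apart.

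The targeted genes do not settle the label Stat5a-/-. Both Stat5a probe sets read higher in these arrays than in Stat5ab+/null (log2 differences of 0.39 and 0.56, limma adjusted p = 1.00 each). Both Stat5b probe sets read lower there (-0.25 and -0.31, adjusted p = 1.00 each) although the label gives these mice more Stat5b alleles, so directions drawn from that group rest on the label alone. Between the 1-allele genotypes Stat5a ran with the labels: it was lower in single-Stat5b in both probe sets, by -1.23 (adjusted p = 0.00251) and -0.24 (adjusted p = 0.814). The arrays also form sets by allele total: Pearson r over all probe sets was 0.818 to 0.883 between 1-allele and 2-allele arrays and 0.948 to 0.994 within a set. The actin control's 3′ minus 5′ signal, which rises with RNA degradation or short labelling products, was 2.16 to 3.78 in 1-allele arrays and 0.13 to 0.27 in 2-allele arrays. Each genotype lies in 1 set, so allele total and array set cannot be told apart, and tests were made within a set. Precision is limited by the number of arrays. Nothing in the labels says that the mice come from separate litters or batches, so p-values measure the spread between these samples, which may be partly technical.

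Within the 1-allele set, single-Stat5b against single-Stat5a asks which gene supplies the only intact allele. The gene Kdr, for the main signalling receptor of vascular endothelial growth factor, had the largest difference of the 16 probe sets, 0.77 log2 units below single-Stat5a. It missed the threshold (limma adjusted p = 0.0567). None of the 16 probe sets passed at an adjusted p under 0.05, where 2.89% of all 31526 probe sets tested did. At an unadjusted p under 0.05 there were 6 of 16, all lower in single-Stat5b (11.8% of all probe sets had an unadjusted p under 0.05 in either direction). For those same 6, belonging to Kdr, Flt1 (2 probe sets), Pecam1, Cdh5 and Esam, every single-Stat5b array lay below every single-Stat5a array, which held for 6.16% of all probe sets. Differences were below 0 for 12 of 16 probe sets (50.2% of all), with a median of -0.37 against -0.0014 over all probe sets.

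Within the 2-allele set, Stat5a-/- against Stat5ab+/null compares 2 Stat5b alleles with 1 allele of each gene. No member passed here either, and none had an unadjusted p under 0.05 (0.00952% and 2.84% of all probe sets). Differences ran from -0.45 for Eng to 0.23 for Pecam1. They were below 0 for 12 of 16 probe sets (61.4% of all), with a median of -0.16 against -0.05 over all probe sets. In 1 probe set of 16, Flt4 1444052_at, every array labelled Stat5a-/- lay below every Stat5ab+/null array, against 11.3% of all probe sets.

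**Figure D1:**
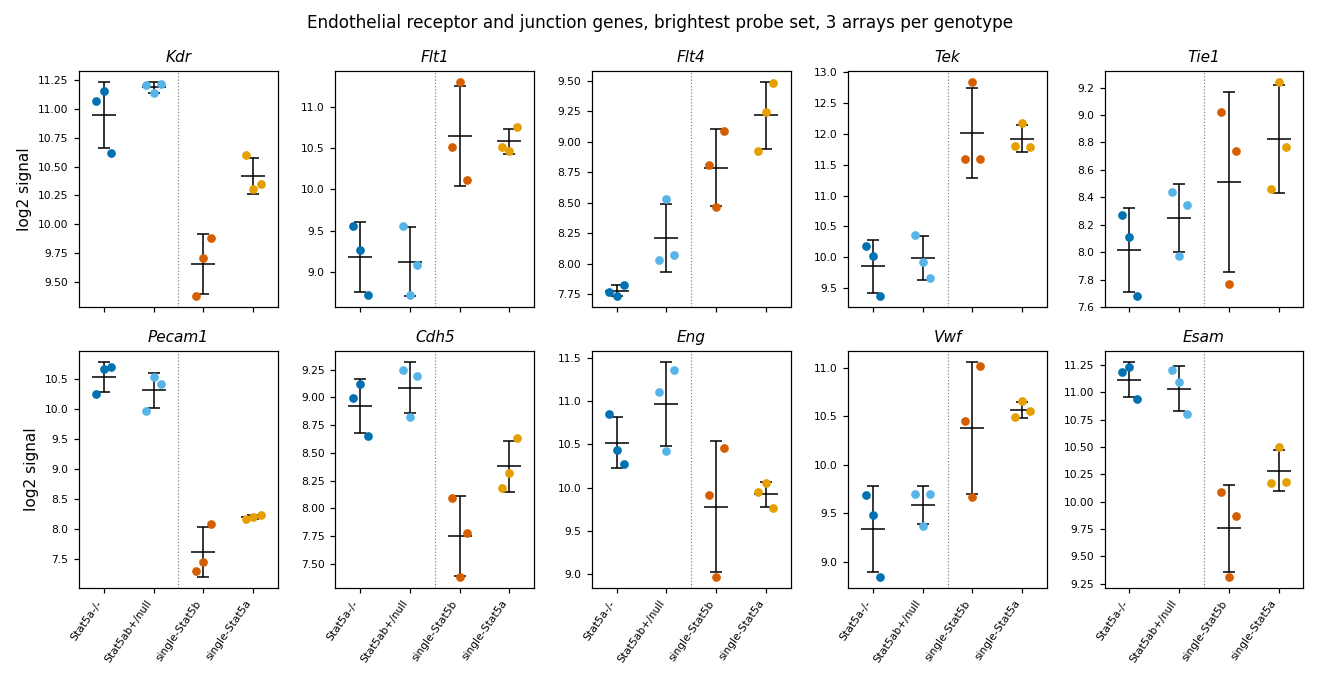
Log2 signal (vertical axis, its range set per panel) of the brightest probe set of each of the 10 genes, by genotype. Points are single arrays, bars are the mean and SD of 3 arrays, and the dotted line parts the 2-allele set (left) from the 1-allele set (right). The 3 single-Stat5b arrays sit below the 3 single-Stat5a arrays for Kdr, Pecam1, Cdh5 and Esam, and the step between the sets is downward for Pecam1 and upward for Tek.

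Among the receptors of vascular endothelial growth factors, Kdr read 9.37, 9.70 and 9.88 in single-Stat5b arrays, against 10.60, 10.31 and 10.35 in single-Stat5a arrays. The groups do not overlap, and the difference of -0.77 (SE 0.19, 95% interval -1.19 to -0.35) is a 1.70-fold lower signal. Kdr in the 2-allele set read 11.07, 11.16 and 10.62 in arrays labelled Stat5a-/- and 11.21, 11.14 and 11.22 in Stat5ab+/null arrays. These groups overlap, and Stat5a-/- 3 is the low array (difference -0.24, SE 0.19, adjusted p = 1.00). The 1-allele call was past the threshold in 4 of 26 alternatives (adjusted p from 0.0217 to 1.00 over the 26). These were array weights (-1.01, adjusted p = 0.0217), averaging the probe sets of each gene, which tests fewer features (0.0478), and leaving out single-Stat5b 3 (-0.88, 0.0253) or Stat5a-/- 3 (0.0492). The last is in neither group compared and enters only through the filter and the spread shared by all arrays. In a fit of the 6 arrays of the set alone the adjusted p was 0.307.

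Flt1 encodes a receptor that binds growth factor tightly and signals weakly, partly as a secreted form. Its 4 probe sets disagree. Flt1 1419300_at read 7.62, 7.62 and 8.02 in single-Stat5b arrays, against 8.64, 8.35 and 8.23 in single-Stat5a arrays (difference -0.65, SE 0.25, adjusted p = 0.267). Flt1 1440926_at read 7.90, 7.35 and 7.31 in single-Stat5b arrays and 8.32, 8.02 and 8.34 in single-Stat5a arrays (difference -0.71, SE 0.23, adjusted p = 0.168). Both are without overlap and lower in single-Stat5b. The brightest probe set, Flt1 1451756_at, read 10.52, 11.30 and 10.12 in single-Stat5b arrays, against 10.52, 10.47 and 10.76 in single-Stat5a arrays (difference 0.07, 95% interval -0.61 to 0.74). Single-Stat5b 2 is the highest array of this probe set, and without it the difference was -0.26. The fourth, Flt1 1454037_a_at, differed by 0.11 (95% interval -0.36 to 0.58). In the 2-allele set the 4 probe sets differed by -0.38 to 0.08, none past the test. Which transcripts of the gene each probe set reads was not examined.

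Flt4 encodes the receptor of vascular endothelial growth factor C, found mostly on lymphatic endothelium. Its brighter probe set, Flt4 1444052_at, read 7.77, 7.73 and 7.83 in arrays labelled Stat5a-/- and 8.03, 8.53 and 8.07 in Stat5ab+/null arrays (difference -0.43, SE 0.21, adjusted p = 1.00). In the 1-allele set it read 8.81, 8.46 and 9.09 in single-Stat5b arrays, against 8.93, 9.24 and 9.48 in single-Stat5a arrays, which overlap (difference -0.43, SE 0.21, adjusted p = 0.480). The other probe set differed by -0.07 and by -0.22 in these comparisons, with the same sign as the brighter one.

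The study's genotypes alter STAT5, which binds palindromes of the form TTCNNNGAA. RefSeq promoter windows on GRCm38.p6, which reach from 250 bases before a gene's start to 50 after it, were at hand for 6 of the 10 members, Kdr, Flt1, Flt4, Tek, Tie1 and Eng. None of the 6 windows holds TTCNNNGAA, which 8.3% of 32851 mouse windows hold. GGAA (either strand), the core letters bound by ETS factors, which act in endothelial cells, occurs in all 6 and in 96% of all windows. The 150 bases before the start are shown for Kdr and Flt1, the receptors with probe sets that lie lower without overlap in single-Stat5b (for Flt1, 2 of 4). Both genes lie on the minus strand of the genome and are read 5′ to 3′ along the gene, with GGAA and its reverse complement, TTCC, in capitals. Kdr has 2 matches in chr5:75978456-75978605 and Flt1 has 4 in chr5:147726012-147726161. A match is only a description of the letters, and a missing match says only that these letters are not in this window.
Kdr: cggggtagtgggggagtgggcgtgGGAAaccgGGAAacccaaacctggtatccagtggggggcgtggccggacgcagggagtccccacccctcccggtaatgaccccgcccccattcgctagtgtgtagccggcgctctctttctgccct
Flt1: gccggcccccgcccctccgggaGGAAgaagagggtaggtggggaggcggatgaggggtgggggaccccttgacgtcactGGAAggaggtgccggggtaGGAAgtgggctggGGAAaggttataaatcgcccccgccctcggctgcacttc

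**Figure D2:**
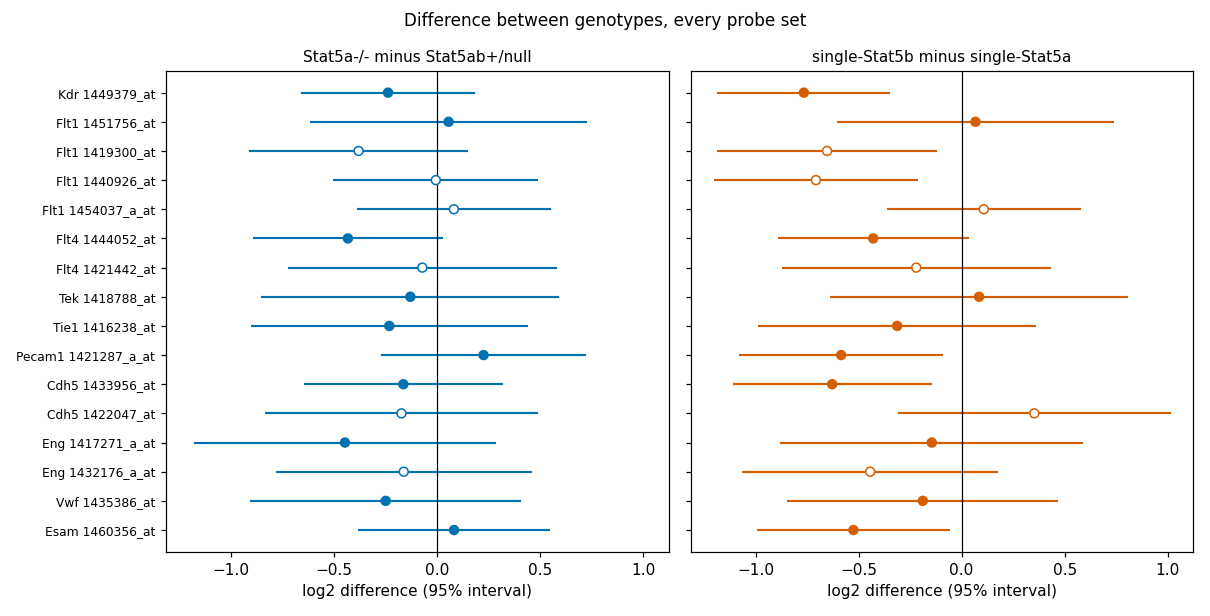
Log2 difference of each of the 16 probe sets (rows) with its 95% interval from limma, for Stat5a-/- minus Stat5ab+/null (left) and single-Stat5b minus single-Stat5a (right). Filled points are the brightest probe set of a gene and open points its others. On the right, the intervals of Kdr, 2 Flt1 probe sets, Pecam1, the brighter Cdh5 probe set and Esam lie below 0, and on the left every interval includes 0.

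Of the angiopoietin receptors, Tek read 11.58, 12.84 and 11.58 in single-Stat5b arrays and 11.80, 12.16 and 11.79 in single-Stat5a arrays. The difference was 0.08 (95% interval -0.64 to 0.81), and single-Stat5b 2 is again the highest array. Without it the difference was -0.33. Tek in the 2-allele set read 10.19, 10.02 and 9.37 in arrays labelled Stat5a-/-, against 10.37, 9.93 and 9.66 in Stat5ab+/null arrays (difference -0.13, 95% interval -0.85 to 0.59). Tie1, the partner receptor without a well-defined ligand of its own, read 9.02, 7.77 and 8.74 in single-Stat5b arrays and 8.46, 9.24 and 8.77 in single-Stat5a arrays (difference -0.31, 95% interval -0.99 to 0.36). The low array here is single-Stat5b 2, and without it the difference was 0.06. Tie1 differed by -0.23 in the 2-allele set (95% interval -0.90 to 0.44), with overlapping groups.

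Of the junction genes, Pecam1 encodes an adhesion molecule of endothelial contacts that platelets and many leukocytes also carry. It read 7.31, 7.45 and 8.09 in single-Stat5b arrays, against 8.17, 8.20 and 8.24 in single-Stat5a arrays. The single-Stat5a arrays lie close together and above all single-Stat5b arrays (difference -0.58, SE 0.23, adjusted p = 0.297). Without single-Stat5b 3 the difference was -0.82 and passed (adjusted p = 0.0376). Pecam1 in the 2-allele set read 10.25, 10.66 and 10.69 in arrays labelled Stat5a-/- and 9.97, 10.52 and 10.42 in Stat5ab+/null arrays (difference 0.23, 95% interval -0.27 to 0.72).

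Cdh5 encodes VE-cadherin, the adherens junction cadherin of endothelium, and its probe sets disagree in the 1-allele set. The brighter one, Cdh5 1433956_at, read 8.09, 7.38 and 7.77 in single-Stat5b arrays, against 8.19, 8.31 and 8.64 in single-Stat5a arrays, without overlap (difference -0.63, SE 0.22, adjusted p = 0.224). The dimmer one, Cdh5 1422047_at, read 6.50, 5.88 and 6.26 in single-Stat5b arrays and 5.71, 6.60 and 5.28 in single-Stat5a arrays (difference 0.35, 95% interval -0.31 to 1.01). Values of the dimmer one reach below the filter level of 6.04. In the 2-allele set the probe sets differed by -0.16 and -0.17.

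Esam, for an immunoglobulin-type adhesion molecule of endothelial tight junctions and platelets, read 10.09, 9.31 and 9.87 in single-Stat5b arrays, against 10.17, 10.50 and 10.18 in single-Stat5a arrays. The groups do not overlap, by a narrow gap (difference -0.52, SE 0.22, adjusted p = 0.336). In the 2-allele set the difference was 0.08 (95% interval -0.38 to 0.55).

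Eng encodes endoglin, a co-receptor for ligands of the transforming growth factor beta family. Its brighter probe set, Eng 1417271_a_at, read 10.85, 10.43 and 10.28 in arrays labelled Stat5a-/-, against 11.11, 10.42 and 11.36 in Stat5ab+/null arrays (difference -0.45, SE 0.34, adjusted p = 1.00). In the 1-allele set it read 9.91, 8.96 and 10.46 in single-Stat5b arrays and 9.95, 10.06 and 9.77 in single-Stat5a arrays. Single-Stat5b holds both the lowest and the highest of these 6 values (difference -0.14, 95% interval -0.88 to 0.59), and without single-Stat5b 2 the difference was 0.26. The other probe set differed by -0.16 and by -0.44.

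Vwf encodes von Willebrand factor, the clotting protein that endothelial cells and megakaryocytes store. It read 10.46, 9.67 and 11.02 in single-Stat5b arrays and 10.50, 10.66 and 10.56 in single-Stat5a arrays (difference -0.19, 95% interval -0.85 to 0.47, and 0.17 without single-Stat5b 2). In the 2-allele set it differed by -0.25 (95% interval -0.91 to 0.41). The mean log2 signal of 6 measured platelet markers, of 9 listed, was 8.10, 8.08 and 8.19 in single-Stat5b, 8.31, 8.24 and 8.14 in single-Stat5a, 8.24, 8.23 and 8.14 in arrays labelled Stat5a-/- and 8.29, 8.34 and 8.33 in Stat5ab+/null. Their part in the values of Pecam1, Esam and Vwf was not tested.

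Whether the differences between the isoforms are unequal in the 2 sets was tested as an interaction, (single-Stat5b minus single-Stat5a) minus (Stat5a-/- minus Stat5ab+/null). No member probe set passed (1.09% of all did), and 1 of 16, Pecam1, had an unadjusted p under 0.05 (7.47% of all). The interaction was -0.81 for Pecam1 (95% interval -1.51 to -0.11, adjusted p = 0.524), -0.61 for Esam (adjusted p = 0.750) and -0.53 for Kdr (adjusted p = 0.779). These values rest on the doubted label. With Stat5a-/- and Stat5ab+/null exchanged, an alternative chosen after seeing the data, no member passed either (1.38% of all did), and 5 of 16 had an unadjusted p under 0.05 (8.73% of all). The order of the genes then turned: Kdr was at -1.003 (95% interval -1.60 to -0.41, adjusted p = 0.135), Esam at -0.44 (0.791) and Pecam1 at -0.36 (0.858). The other 4 under 0.05 were Flt1 1419300_at (-1.03), Flt1 1440926_at (-0.71), Flt4 1444052_at (-0.86) and the brighter Cdh5 probe set (-0.79). Under either reading, no member's difference was shown to be unequal in the sets.

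The 1-allele arrays stood far from the 2-allele arrays for many members, in both directions. Of the 16 probe sets, 5 were lower in all 6 of the 1-allele arrays than in all 6 of the 2-allele arrays, and 3 were higher. Over all probe sets 25.8% were lower and 28.1% higher without overlap, so the members' shares carry no result of their own. Pecam1 averaged 7.91 ± 0.41 in the 1-allele arrays and 10.42 ± 0.27 in the 2-allele arrays (SD, n = 6 each), a difference of -2.51 that only 2.74% of all probe sets matched or went below. Tek averaged 11.96 ± 0.48 in the 1-allele arrays and 9.92 ± 0.36 in the 2-allele arrays, a difference of 2.04, at the 92.2 percentile of all probe sets. In the brightest probe sets, both 1-allele genotypes averaged below both 2-allele genotypes for Kdr, Pecam1, Cdh5, Eng and Esam, and above them for Flt1, Flt4, Tek, Tie1 and Vwf. Within each set the neighbouring genotypes in this order did not pass the test.

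Probe sets of 1 gene also moved apart between the sets. The Eng probe set 1417271_a_at differed by -0.89 and 1432176_a_at by 1.06 between 1-allele and 2-allele arrays. Flt1 1451756_at differed by 1.46, and the other 3 Flt1 probe sets by -0.80 to -0.28. The Flt4 probe sets (1.01 and 0.85) and the Cdh5 probe sets (-0.94 and -1.05) agreed in sign. Disagreement, taken as opposite signs or a gap of at least 1 log2 unit, was found for 78.4% of the 6836 genes with several probe sets past the filter in this comparison, for 53.4% in single-Stat5b minus single-Stat5a and for 50.9% in Stat5a-/- minus Stat5ab+/null.

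**Figure D3:**
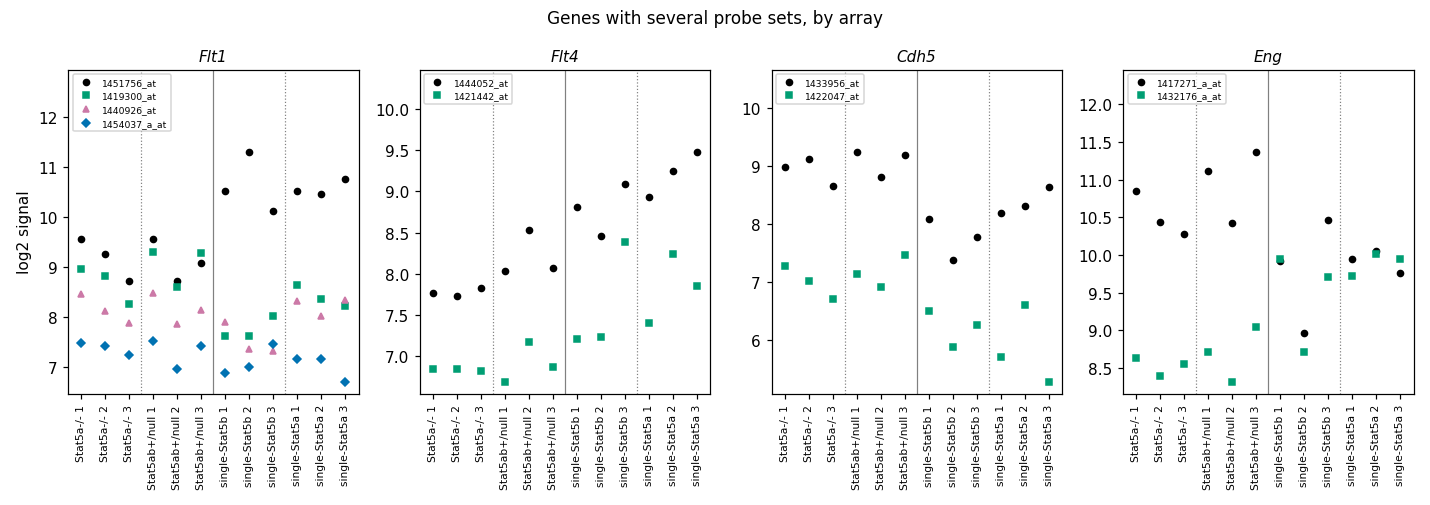
Log2 signal (vertical axis) of every probe set of Flt1, Flt4, Cdh5 and Eng in each of the 12 arrays (horizontal axis), 1 marker shape per probe set. The solid line parts the 2-allele arrays (left) from the 1-allele arrays (right), and dotted lines part genotypes. The 2 Eng probe sets lie apart in the 2-allele arrays and together in the 1-allele arrays, and Flt1 1451756_at steps up while the other Flt1 probe sets do not.

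Single arrays carried several members together. Stat5a-/- 3 had the lowest value of its genotype in 13 of 16 probe sets, and Stat5ab+/null 2 in 11 of 16. The share over all probe sets was not counted, and the shift is not particular to the members. Stat5a-/- 3 also had the lowest mean of its genotype for adipocyte (13.36), fibroblast (13.41) and mammary epithelial markers (12.00). Stat5ab+/null 2 had it for adipocyte (13.48) and fibroblast markers (13.41) but not for epithelial markers. Both are the arrays of the 2-allele set with the most lymphoid signal: the mean of 9 B and plasma cell markers, of 11 listed, was 6.73, 6.75 and 11.50 in arrays labelled Stat5a-/- and 7.63, 11.98 and 9.47 in Stat5ab+/null. The mean of 12 muscle markers, of 13 listed, was 6.51, 6.44 and 9.74 in arrays labelled Stat5a-/- and 6.63, 8.73 and 6.36 in Stat5ab+/null, so the same arrays also held the most muscle signal. Ms4a1, a B cell surface marker, read 12.93 in Stat5a-/- 3 and 13.14 in Stat5ab+/null 2. Pecam1 and Flt4 1444052_at ran the other way from most members, each with its highest value of the genotype in both of these arrays. When these B cell and muscle means entered the fit as covariates, Pecam1 differed by 0.23 and Eng by -0.67 in this set, and no member passed.

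In the 1-allele set the mean of the B and plasma cell markers was 7.87, 6.80 and 6.87 in single-Stat5b and 6.60, 6.47 and 7.44 in single-Stat5a. Skeletal muscle signal varied more: the mean of the muscle markers was 7.85, 8.52 and 10.68 in single-Stat5b arrays and 10.50, 13.22 and 9.63 in single-Stat5a arrays, with all 12 differences below 0 (median difference -2.27). White adipocyte markers were below 0 for 9 of 10 (median -0.48) and mammary epithelial markers above 0 for 10 of 12 (median 0.32), none of them called in the brightest probe set of a gene. A dimmer probe set of Elf5, for a transcription factor of the alveolar epithelium, was called: 1419556_at read 8.59, 8.90 and 10.26 in single-Stat5b arrays, against 5.93, 4.98 and 5.37 in single-Stat5a arrays (difference 3.82, SE 0.38, adjusted p = 4.34e-05). The brightest Elf5 probe set differed by 0.23 (adjusted p = 0.821). The actin 3′ minus 5′ signal was 3.78, 2.41 and 2.16 in single-Stat5b arrays and 2.42, 2.16 and 3.07 in single-Stat5a arrays. The members' mean over their 10 brightest probe sets was 9.52, 9.29 and 9.66 in single-Stat5b arrays, against 9.73, 9.92 and 9.85 in single-Stat5a arrays. When the means of the B cell and muscle markers entered as covariates, Kdr differed by -0.70 (adjusted p = 0.241), Cdh5 by -0.79 and Pecam1 by -0.42. With the actin signal as a covariate Kdr differed by -0.71 (adjusted p = 0.0723). The part of adipocyte and epithelial content in these values was not tested.

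Single-Stat5b 2 stood apart from its group in both directions. Against the mean of the 6 arrays of its set it lay 0.88 higher for Tek and 0.69 higher for Flt1 1451756_at, and its deviation was -0.90 for Tie1, -0.89 for Eng, -0.81 for Vwf, -0.71 for Esam and -0.68 for Cdh5. It also has the highest signal of the bacterial hybridization controls (13.43, against 12.75 to 13.08 in the other single-Stat5b and the single-Stat5a arrays). The part of this in the members' values was not tested. Leaving it out turned the sign of 5 members in the 1-allele comparison, Flt1, Tek, Tie1, Eng and Vwf, and left that of Kdr, Flt4, Pecam1, Cdh5 and Esam. Over the 26 alternatives the difference ranged from -1.01 to -0.63 for Kdr, -0.58 to -0.25 for Flt4 and -0.82 to -0.42 for Pecam1. Cdh5 ranged from -0.80 to -0.14 and Esam from -0.69 to -0.19, so their sizes depend on the setting.

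**Figure D4:**
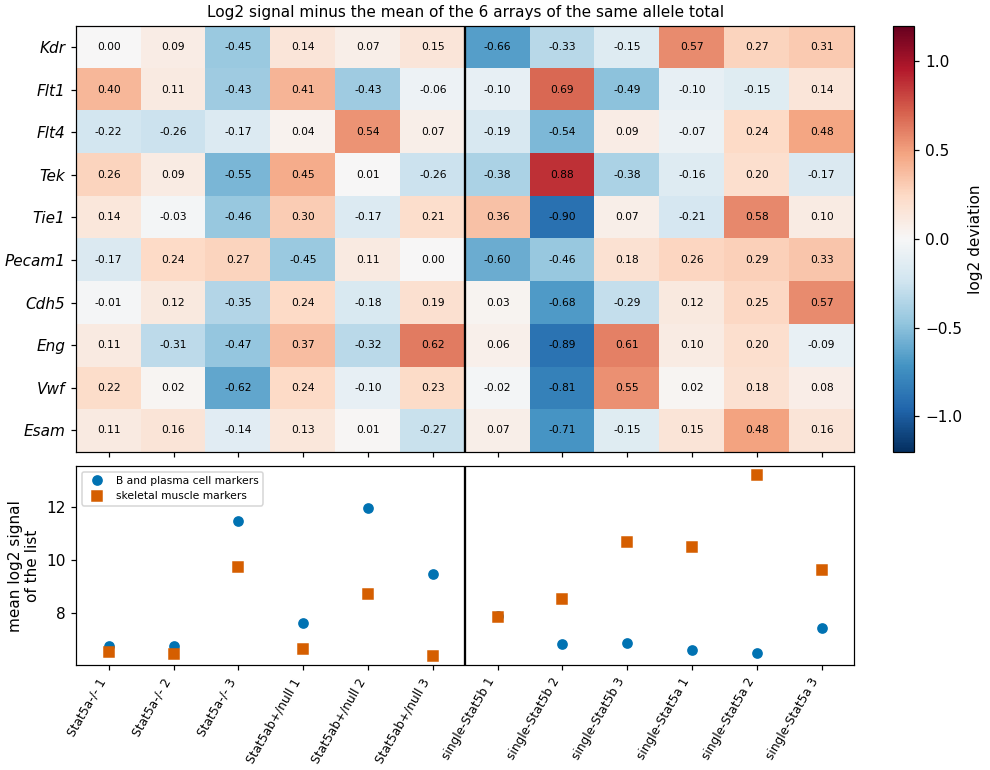
Upper panel: log2 deviation of each array (columns) from the mean of the 6 arrays of its set, for the brightest probe set of each gene (rows), with the 2-allele set left of the line. Lower panel: mean log2 signal of the B and plasma cell markers and the skeletal muscle markers in the same arrays. Single-Stat5b 2 is the lowest of its set for Flt4, Tie1, Cdh5, Eng, Vwf and Esam and the highest for Tek and Flt1. Stat5a-/- 3 is below the mean of its set for every gene but Pecam1.

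Other genes of the same pathways were read from lists, with the brightest probe set standing for a gene. None of these probe sets passed the test in either comparison. Among 106 other probe sets of the listed genes, lists of other cell types included, 4 passed in single-Stat5b minus single-Stat5a and none in Stat5a-/- minus Stat5ab+/null. They belong to Elf5, given above, Vegfd and Cd99l2, named after their values were seen. Of 11 measured ligands and co-receptors for vascular endothelial growth factors and angiopoietins, 6 were below 0 in single-Stat5b minus single-Stat5a (median -0.06). By the brightest probe sets, the largest differences were -0.53 for Ptprb, a phosphatase that acts on the Tek receptor (its others gave -0.45 and 0.22), -0.42 for the ligand gene Vegfb, 0.31 for Angpt4 and 0.25 for Vegfc. Other Vegfc probe sets gave -0.08 and -0.06. The called probe set of Vegfd, for a ligand of the receptor encoded by Flt4, is a dimmer one by the mean over the 12 arrays. In the 2-allele arrays it was the brighter: it read 10.27 to 11.06. The brightest probe set by the 12-array mean averaged 9.18 there in arrays labelled Stat5a-/- and 9.31 in Stat5ab+/null. Vegfd 1449528_at read 9.17, 8.54 and 7.92 in single-Stat5b arrays, against 10.21, 9.88 and 10.40 in single-Stat5a arrays, and fell by 1.62 (SE 0.28, adjusted p = 0.00483). The other Vegfd probe sets differed by 0.0098 and 0.10, so the probe sets of this gene disagree. In Stat5a-/- minus Stat5ab+/null 6 of 11 were below 0 (median -0.09), with Nrp2 at -0.34, Vegfb at -0.29, Nrp1 at 0.20 and Ptprb at -0.19. Other probe sets gave -0.16 to 0.07 for Nrp1, and -0.25 and 0.12 for Ptprb.

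Of 12 measured genes around endoglin, 8 were below 0 in the 1-allele comparison (median -0.09), led by Acvrl1, the endothelial type I receptor for bone morphogenetic proteins, at -0.60. Smad7 and Smad6, inhibitors of this signalling, differed by -0.32 each and the target Id3 by -0.25. Another Smad7 probe set differed by 0.32, so the probe sets of that gene disagree. In the 2-allele comparison 7 of 12 were below 0 (median -0.16), with Tgfb1 at -0.83, Id3 at -0.56, Smad6 at -0.44 and Smad1 at 0.37. Another Tgfb1 probe set gave 0.18, and other Smad1 probe sets gave 0.12 and -0.21. Of 13 other junction genes, 8 were below 0 in the 1-allele comparison (median -0.11). Jup, for the adherens junction protein plakoglobin, differed by -0.86 (adjusted p = 0.0636), the endothelial tight junction gene Cldn5 by -0.81 (0.221), F11r by -0.54 (0.279) and Ocln by 0.42 (0.789; another probe set -0.30). Epithelial cells also express Jup, F11r and Ocln. Cd99l2, for a membrane protein related to CD99, was called in 2 of its 4 probe sets. Cd99l2 1456746_a_at read 9.40, 9.12 and 9.73 in single-Stat5b arrays, against 10.62, 10.56 and 10.34 in single-Stat5a arrays, and fell by 1.09 (adjusted p = 0.0189), and 1456747_x_at fell by 1.85 (adjusted p = 0.00299). Its brightest probe set differed by -0.06 (adjusted p = 0.964) and the fourth by -0.73 (0.0894). In the 2-allele comparison 7 of 13 were below 0 (median -0.04), with Cldn5 at -0.76, Rasip1 at -0.60, Jup at -0.28 and Jam2 at 0.20. Other Jam2 probe sets gave -0.10 to 0.15.

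Of 31 further endothelial markers, 29 were measured past the filter, which 14198 of all 18193 genes also passed. In single-Stat5b minus single-Stat5a 19 of 29 were below 0 (median -0.11), and 3 of 29 had an unadjusted p under 0.05, no larger a share than the 11.8% of all probe sets. These 3, chosen after their values were seen, are the transcription factor gene Sox7 (-0.76, adjusted p = 0.140), the water channel gene Aqp1 (-0.77, 0.214) and the endothelial nitric oxide synthase gene Nos3 (-0.79, 0.275). In Stat5a-/- minus Stat5ab+/null 19 of 29 were below 0 as well (median -0.09), none with an unadjusted p under 0.05. Over all genes tested the medians were -0.03 and -0.08.

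The genes most like the members were sought by the Pearson r with the members' mean over the 6 arrays of each set, ranking 14188 other genes by the lower of both values of r. The arrays of a set share genotypes and depth of labelling, and the values are a description. H6pd, Asap1, Adh1, Nfe2, Syde1, Garre1, Tln2 and Myo1d led, with a lower r of 0.924 to 0.955, against a median of -0.23 over all genes. All 8 differed by -0.85 to -0.47 in single-Stat5b minus single-Stat5a and by -0.34 to -0.11 in Stat5a-/- minus Stat5ab+/null. The members' mean was lower in every single-Stat5b array than in every single-Stat5a array. In the 2-allele set it read 9.78, 9.72 and 9.36 in arrays labelled Stat5a-/-, against 9.88, 9.65 and 9.79 in Stat5ab+/null arrays, lower on average with overlap. The signs in both sets therefore largely follow from the choice by r and are no separate result. Of the genes on the pathway and marker lists, Acvrl1 ranked 24 (lower r 0.901), the adipocyte gene Plin4 35 (0.888), Robo4, for an endothelial guidance receptor, 51 (0.873) and the macrophage gene Adgre1 103 (0.839). Other genes of the same lists ranked far below: the endothelial marker Cd34 12543 (-0.73), the adipocyte gene Fabp4 12580 (-0.73) and the macrophage gene Mrc1 10981 (-0.60). Cd34, Fabp4 and Mrc1 are low picks. Fabp4 and Mrc1 ranked lowest of their lists, and Cd34 near the bottom of its list. Most genes of the endothelial, adipocyte and macrophage lists lay above the median over all genes, so likeness was common in these lists but not shared by every gene. The members did not all run with the mean of the other 9: r over the 6 arrays of the 2-allele set was 0.971 for Vwf, 0.960 for Tie1 and -0.81 for Pecam1, while in the 1-allele set it was 0.800 for Pecam1, -0.62 for Tek and -0.67 for Flt1.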

How the data were processed

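Total RNA from mammary tissue of 12 mice was extracted with Trizol and hybridized as biotinylated cRNA to Affymetrix arrays, per the labels. The authors deposited log2 signals per probe set. RMA and Partek are named in the submitters' processing notes, without versions. Medians of the arrays ran 7.28 to 7.50. Genotypes came from the labels, and replicates were numbered in record order. The platform's annotation names 1 gene for 34945 probe sets, several for 932 and none for 9160, beside 64 controls.

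Every probe set other than controls with a mean at or above the 30th percentile (log2 6.04) entered a limma model (limma 3.58.1, R 4.3.3) with a mean for each genotype, a common spread over the 12 arrays, two-sided moderated tests, and Benjamini-Hochberg adjustment over 31526 probe sets. A call needs an adjusted p under 0.05. An exact permutation test of 3 arrays against 3 cannot go below p = 0.1. The fit was tested on simulated data. The members and lists were chosen with earlier results of these data known. Named were all members, up to 4 genes with the largest differences from each pathway list, called genes of other lists by the brightest probe set, and the 8 most like genes. Outside this rule, Sox7, Aqp1, Nos3, Plin4, Robo4, Adgre1, Cd34, Fabp4, Mrc1, Ms4a1 and genes called by a dimmer probe set (Elf5, Vegfd, Cd99l2) were named after their values were seen. Alternatives changed the filter, scaling, probe set summary, variance model, covariates, threshold and arrays.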

Additional observations from a re-analysis of the deposited data

How the results depend on the processing

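No paired analysis was possible because the labels give no replicate numbers shared between genotypes. The count of member probe sets called stayed at 0 in all 26 alternatives for Stat5a-/- minus Stat5ab+/null and in all 26 for the interaction (1 of them, exchanged labels in the 2-allele set, chosen after seeing the data), which a fit of 1 set alone cannot give. For single-Stat5b minus single-Stat5a it was 1 with array weights, 1 when the probe sets of each gene were averaged (which tests fewer features), 0 to 2 with 1 array left out (2 without single-Stat5b 3, Kdr and Pecam1, and 1, Kdr, without Stat5a-/- 3), and 0 in the other alternatives. The cause was not tested. Over all probe sets, Stat5a-/- minus Stat5ab+/null had 3 calls, 430 with array weights and 0 to 6 otherwise. Single-Stat5b minus single-Stat5a had 912 calls, 310 with 1 probe set per gene and up to 2017 without single-Stat5b 3, and the interaction had 345, with 110 to 1018 in the alternatives.

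Quantile normalization and centring of the array medians turned no member's sign in either comparison. Signs of uncalled differences turned as follows, and the cause was not tested. In single-Stat5b minus single-Stat5a, leaving out single-Stat5b 2 gave -0.26 for Flt1, -0.33 for Tek, 0.058 for Tie1, 0.26 for Eng and 0.17 for Vwf. With any 1 array left out, the ranges were -0.26 to 0.33 for Flt1, -0.33 to 0.29 for Tek, -0.57 to 0.058 for Tie1, -0.48 to 0.26 for Eng and -0.51 to 0.17 for Vwf. With 4 arrays left out at once (single-Stat5b 2, single-Stat5a 2, the third of Stat5a-/- and the second of Stat5ab+/null) these were -0.32, -0.21, 0.27, 0.33 and 0.21. Array weights gave -0.024 for Flt1, -0.15 for Tek and 0.18 for Tie1, the B cell and muscle covariates gave -0.15 for Flt1 and 0.063 for Eng, and the mean of the probe sets gave -0.30 for Flt1. In Stat5a-/- minus Stat5ab+/null, Flt1 was -0.062 with the mean of the probe sets, -0.037 with the covariates, -0.13 without Stat5a-/- 1 and -0.14 without Stat5ab+/null 2 (-0.14 to 0.29 with 1 array left out). Tek was 0.11 without Stat5a-/- 3, 0.062 without Stat5ab+/null 1 and 0.087 with 4 arrays left out (-0.29 to 0.11 with 1 left out). Esam was -0.0022 with the covariates and -0.032 without Stat5ab+/null 3 (-0.032 to 0.17 with 1 left out). Single interactions were followed for Kdr, Pecam1 and Esam, and none turned its sign.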

Other observations

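Genes of the cells around vessels did not pass the test in either comparison. Of 11 markers of pericytes and vascular smooth muscle, 8 were below 0 in single-Stat5b minus single-Stat5a (median -0.09) and 6 in Stat5a-/- minus Stat5ab+/null (median -0.09). Of 6 lymphatic endothelial markers listed, 4 were measured past the filter, with medians of -0.08 and -0.02 in these comparisons. T cell markers (5 measured of 10) had medians of 0.26 and -0.41, macrophage markers (10 of 10) of -0.15 and -0.07, fibroblast markers (8 of 8) of -0.02 and 0.03, and red cell markers (2 of 7) of -0.21 and -0.25.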
